A study of Mus musculus with 26 samples.

Results

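Potassium channel genes were followed across the cell types of the mouse RPE/choroid, the retinal pigment epithelium (RPE) with the vascular layer that lies behind it. All genes whose symbol starts with Kcn were taken except Kcnj5 and Kcnj8, provided that at least 10 unique molecular identifiers (UMIs, each the tag of a captured transcript molecule) were counted for them over both single-cell libraries. Of 60 such symbols, 2 were left out by name and 10 had too few UMIs, which left 48 genes of the 16426 in the count tables. They comprised 16 voltage-gated (Kv) subunits, 6 inward rectifiers (Kir), 7 subunits of the tandem-pore K2P family, 7 calcium- or sodium-activated subunits, 11 auxiliary subunits and the noncoding RNA Kcnq1ot1.

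The single-cell RNAseq (scRNAseq) data came from 1 library of B6129PF1/J mice and 1 library of C57BL/6J mice, each made from 90-d-old animals by pooling the tissue of a male and a female eye and sorting live nucleated cells. Bulk RNAseq compared RPE/choroid of 6-month-old C57BL/6J littermates, 3 Ihh+/+ and 3 Ihh iDEC/iDEC, in which the hedgehog ligand gene Ihh was deleted in endothelial cells (ECs) by tamoxifen-induced Cdh5-CreERT2 12 weeks earlier, and the Ihh+/+ controls also carried the Cre and received tamoxifen. A further experiment used choroidal GLI1+ cells, sorted for GFP from pooled Gli1 GFP/+ female mice (strain label SWR/J) and expanded as a single stock in culture, which were given DMSO or 100 nM of the hedgehog agonist SAG for 24 h, with 3 replicates each. The series has 26 samples in 10 groups, of which these 14 are compared. The other 12 are ECs sorted from the heart, liver, lung and neural retina of 1-month-old B6129PF1/J mice, 3 samples each, whose averages are given for 1 gene at the end.

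The libraries held 3637 and 3928 cells (B6129PF1/J, then C57BL/6J, the order kept throughout), with 17168578 and 15230413 UMIs and medians of 3881 and 3174.5 UMIs per cell. The authors had placed the cells in 13 clusters, which are RPE (cluster 1), Kdr-high, Kdr-medium and Kdr-low ECs (2 to 4), stromal cells (5 to 8), smooth muscle cells (9), melanocytes (10), hematopoietic cells (11) and Schwann cells (12 and 13). The summed level of 4 RPE markers was 256 and 235 UMIs per 10,000 in cluster 1 and at most 4.04 elsewhere, and the other lists were likewise highest in the clusters of their name. Cluster 6 held both the stromal markers, at 22 and 18.4, and the smooth muscle markers, at 13 and 8.43 UMIs per 10,000. Clusters 12 and 13 differed in the Schwann markers, at 52.0 and 52.3 against 502 and 391 UMIs per 10,000. The libraries shared 22 cell barcodes, and 35 and 33 cells held UMIs of both Xist and Ddx3y, a sign of a male and a female cell under a single barcode. With 1 library per strain there is no test between strains, library and strain cannot be told apart, and because the clusters were made from the same cells no cluster was tested against the rest. Levels are therefore given as the summed UMIs of a gene per 10,000 UMIs of the cluster, with the exact Poisson 95% interval in parentheses. Intervals cover counting error only.

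Potassium channels let potassium ions cross the membrane down their gradient and so set the resting voltage of a cell and end its electrical signals. Kv channels open on depolarization, Kir channels pass current near the resting voltage, K2P channels carry a background leak, and calcium-activated channels couple the voltage to calcium. In the eye they are best known for the apical potassium conductance of the RPE, which helps to hold the ion balance of the space around the photoreceptors, and for control of vessel tone in smooth muscle and endothelium.

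What the pore-forming genes share is the selectivity filter, a short turn of the protein that strips water from the ion. It was searched in the coding sequences of the GENCODE transcripts (GRCm38) as 5 codons, for threonine or serine, any residue, glycine, then tyrosine, phenylalanine or leucine, and glycine. All 36 pore-forming members held it and none of the 11 auxiliary subunits did, and each of the 7 K2P genes held it in 2 places, as did the Kv genes Kcna6 and Kcnh2, so that a match of this pattern need not be the filter itself. The genes that lead the cell types below are shown with 15 bases on either side, 5′ to 3′ on the coding strand, with the filter codons in capitals, since this shared element sits in channels that differ widely in where they were counted.
Kcnj13 (chr1:87389006-87389050, minus strand, exon 2): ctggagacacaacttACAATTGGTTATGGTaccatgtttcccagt
Kcna1 (chr6:126642213-126642257, minus strand, exon 1): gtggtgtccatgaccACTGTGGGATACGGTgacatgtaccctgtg
Kcna5 (chr6:126533730-126533774, minus strand, exon 1): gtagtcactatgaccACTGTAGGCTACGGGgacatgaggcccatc
Kcnn4 (chr7:24379183-24379227, plus strand, exon 4): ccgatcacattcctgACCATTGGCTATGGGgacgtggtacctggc
Kcnk1, match 1 (chr8:125995793-126025034, plus strand, joined across the intron between exons 1 and 2): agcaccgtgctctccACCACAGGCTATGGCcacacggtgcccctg
Kcnk1, match 2 (chr8:126025314-126025358, plus strand, exon 2): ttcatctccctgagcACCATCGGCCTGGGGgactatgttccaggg
Across these 5 genes (Kcnk1 by its match 1) 8 of the 15 filter bases were identical in all, and pairs shared between 8 and 12. Kcna1 and Kcna5, which lie on the same strand of chromosome 6 and had their highest levels in Schwann cells and smooth muscle cells respectively, were among the pairs with 12. In Kcnk1, which has 2 filter matches, match 2 has a leucine codon in place of the tyrosine codon.

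Where the members were highest was compared between the libraries first. The same cluster was highest in both libraries for 27 of 48 members (56.2%), against 46.6% of the 15027 genes with 10 or more UMIs. At least 50% of a gene's summed cluster levels lay in the same cluster in both libraries for 18 members (37.5%), against 10.5% of all genes. When clusters were joined into 7 cell types, 34 of 48 members had the same highest type, against 59.2% of all genes. No test was made of these shares, and 26 and 29 members had fewer than 50 UMIs in a library, so that for many the highest cluster rests on few molecules.

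The counts were uneven over cell types and channel classes. Smooth muscle was the highest type of 10 of the 48 members in both libraries, against 6.32% of all genes. Schwann cells were so for 7 members (8.78% of all genes), stromal cells for 6 (8.16%), ECs for 5 (12.4%), hematopoietic cells for 3 (8.25%), RPE for 2 (8.42%) and melanocytes for 1 (6.82%). Joining clusters averages their levels, so that some of these members were highest in a single cluster of another type. For example, Kcne4 counts to smooth muscle here but was higher in stromal cluster 6. Kcnn4 counts to hematopoietic cells but was higher in Kdr-low ECs. Of the 18 members with at least 50% of their level in 1 cluster, 6 were in smooth muscle cells and 4 in Schwann cluster 12, while the same calls over all genes fell in these clusters in 10% and 7.92% of cases. By class the 18 were 7 Kv, 4 auxiliary, 4 calcium- or sodium-activated, 2 Kir and 1 K2P genes. Counts were low for many, as 21 members had 100 or more UMIs over both libraries and the other 27 had between 11 (Kcnn2, Kcnu1) and 95 (Kcnma1). The map of levels by cluster shows these blocks.

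**Figure D1:**
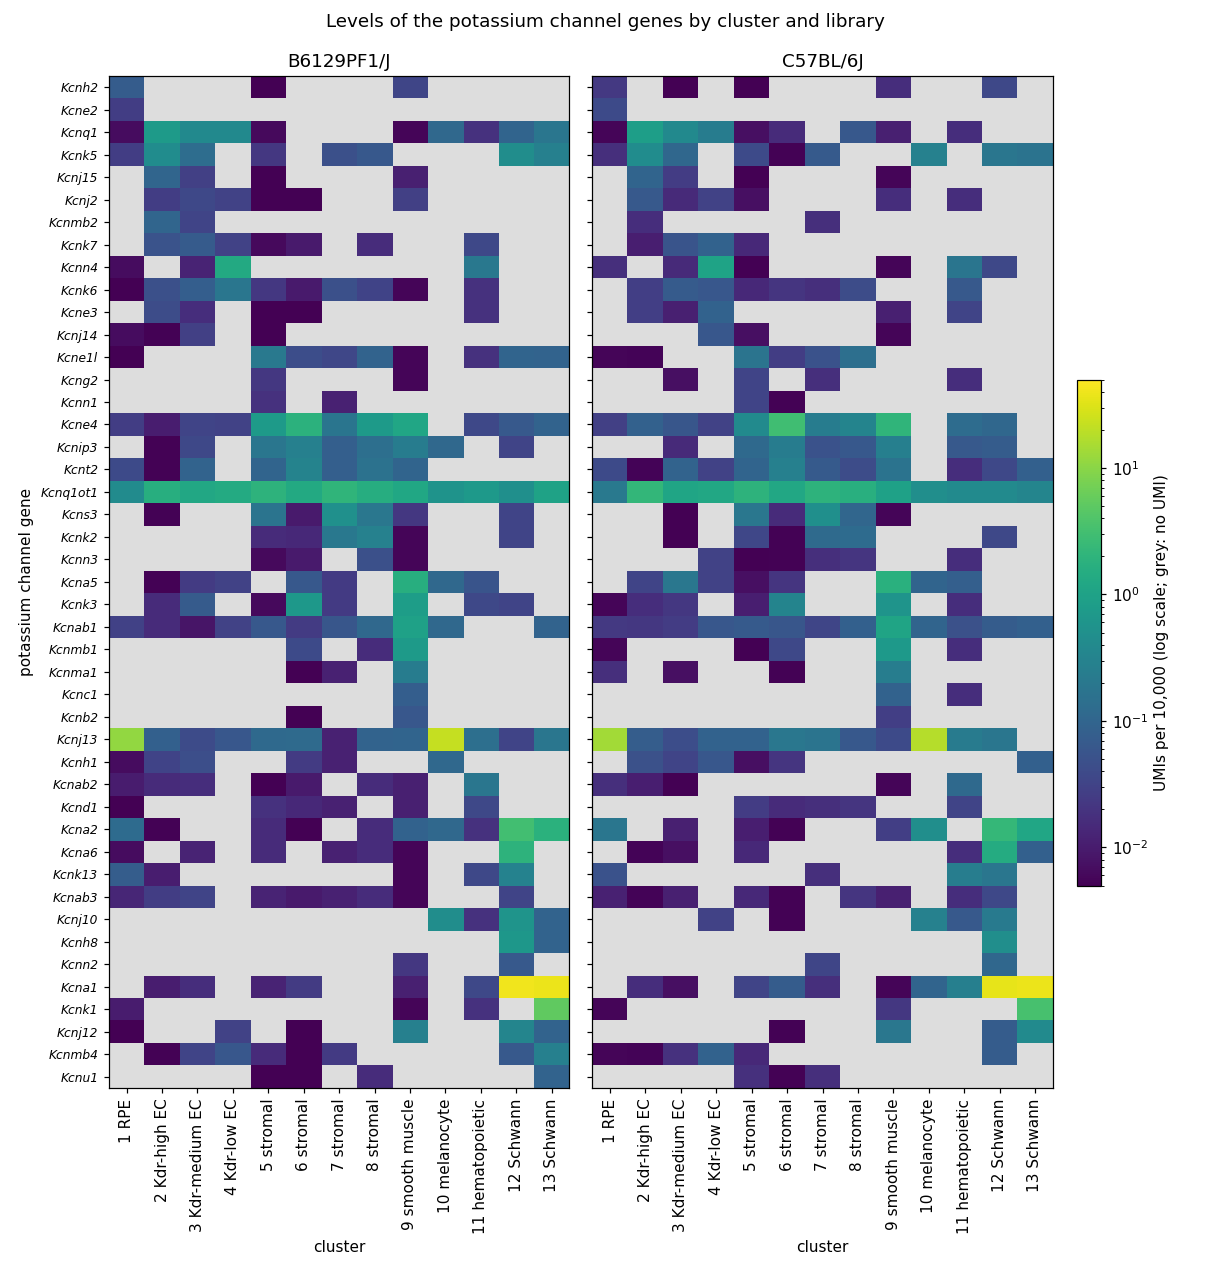
Levels of members (vertical axis, gene) in each of the 13 clusters (horizontal axis) of the B6129PF1/J and C57BL/6J libraries, as colour for UMIs per 10,000. Kcna1 stands out in both Schwann clusters, Kcnj13 in RPE and melanocytes, and a block that includes Kcna5, Kcnab1 and Kcnmb1 in smooth muscle cells.

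Summed over all members, the noncoding Kcnq1ot1 included, UMIs were most abundant in Schwann cells. Cluster 12 held 48.9 (46.4 to 51.4) and 41.9 UMIs per 10,000, and cluster 13 held 48.4 and 44.1 (40.5 to 48.1). Melanocytes followed with 24.2 and 19.5, then RPE with 12.7 and 15.0, smooth muscle cells with 8.90 and 9.04 and stromal cluster 6 with 5.09 and 5.85. ECs lay between 3.07 and 4.74, and hematopoietic cells were lowest at 1.70 and 2.19. Without Kcnq1ot1, ECs lay between 1.92 and 2.49 and hematopoietic cells were at 0.987 and 1.78. In C57BL/6J the stromal clusters 5, 7 and 8 were then lower than hematopoietic cells, at 1.57, 1.51 and 1.13. In the richest cell types a single gene made most of the sum, with Kcna1 at 82.6% and 84.9% of cluster 12 and Kcnj13 at 89.7% and 92.5% of RPE, whereas in smooth muscle cells of the B6129PF1/J library the leading gene, Kcna5, made 18.2%.

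**Figure D2:**
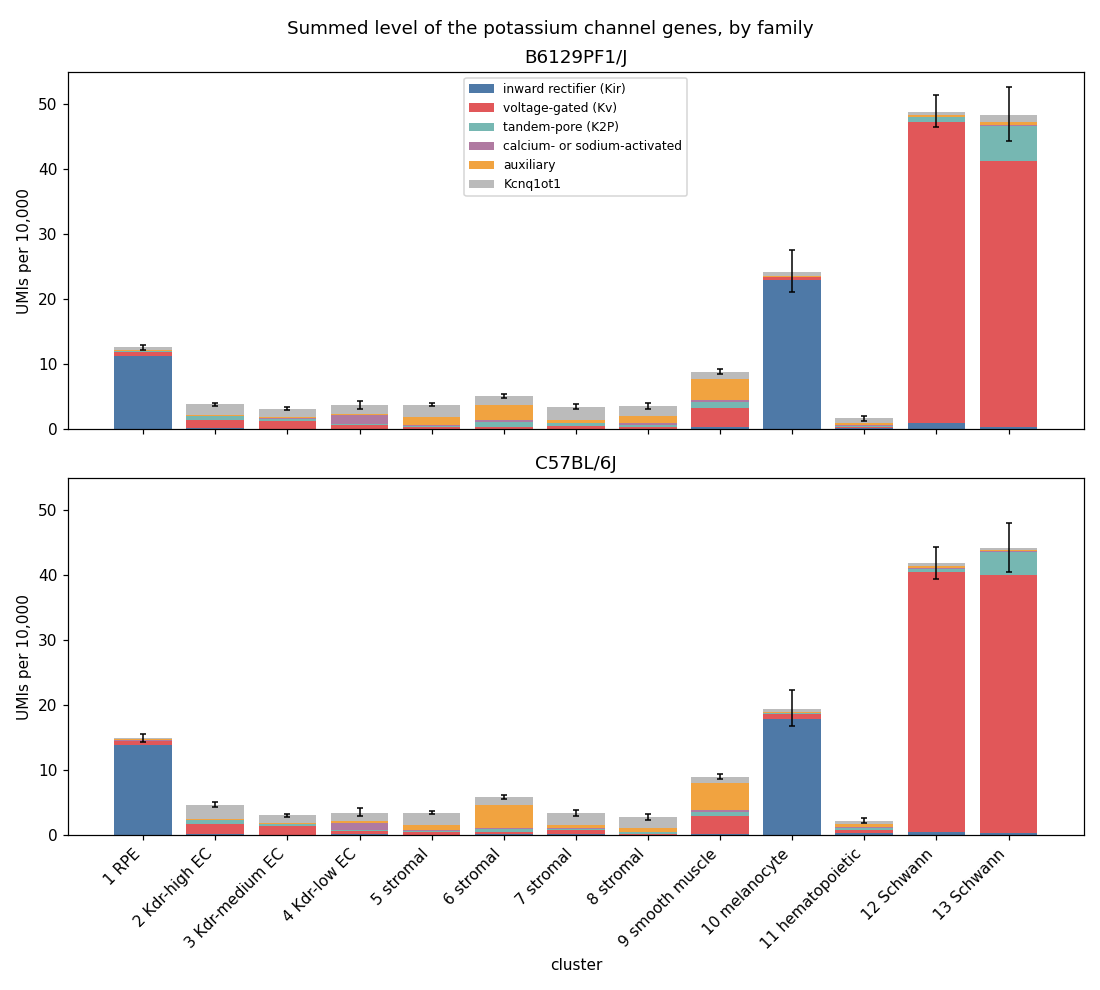
Summed level of the members (vertical axis, UMIs per 10,000) per cluster (horizontal axis), stacked by channel class, with 1 panel per library. Kv genes make up most of the bars of both Schwann clusters, Kir genes those of RPE and melanocytes, and smooth muscle cells carry a mixture.

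In RPE the data show an inward rectifier far above every other channel gene. Kcnj13 encodes the Kir channel of the apical RPE membrane. In RPE cells it was counted at 11.3 (11 to 11.7) and 13.9 (13.3 to 14.4) UMIs per 10,000, and 93.1% and 95.2% of the cells had at least 1 UMI. Kcna2, a Kv subunit, was at 0.127 and 0.189 UMIs per 10,000. Kcne2, an auxiliary subunit that pairs with Kv channels, was counted in RPE alone, by 8 and 7 UMIs. Kcnh2, the Kv subunit of the cardiac rapid delayed rectifier, was at 0.0734 and 0.0229.

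Kcnj13 was not limited to RPE, and melanocytes had the highest level in both libraries. Melanocytes held 22.5 (19.5 to 25.9) and 17.6 (15.2 to 20.4) UMIs per 10,000, which was 1.98 and 1.27 times the RPE level. With all cells included, the intervals of the 2 clusters did not overlap in either library. In C57BL/6J 1 melanocyte held 29 of the 183 UMIs, and the level without it is given below. The gene was detected in 14 of 16 and 22 of 26 melanocytes. In the other 11 clusters its level did not exceed 0.186 and 0.231 UMIs per 10,000, and in stromal cluster 5, for example, 2.71% and 2.62% of cells had a UMI at median depths of 3516.5 and 3037 UMIs, against 5263 and 3406.5 in RPE. No expression is read from shares of this size.

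The melanocyte level was set against RPE transcripts in the same cells. Rpe65, the visual cycle isomerase that defines RPE, was counted by 2 and 3 UMIs in melanocytes beside 200 and 183 UMIs of Kcnj13, so that the ratio of Kcnj13 to Rpe65 was 100 and 61, while it was 0.196 and 0.232 in RPE. In clusters 2 to 9, 11 and 12 the ratio was between 0.0909 and 0.5 in both libraries, and in cluster 6 it was 0.417 and 0.394. In the melanocytes without any Rpe65 UMI, 14 and 25 cells, Kcnj13 was at 23.4 and 15.6 UMIs per 10,000. At most 30 and 29 Kcnj13 UMIs were in a cell. In C57BL/6J the melanocyte with Rpe65 held 29 of the 183 Kcnj13 UMIs, the most of any cell of the cluster. Without it the level of 15.6 was closer to the 13.9 of RPE. No interval was computed for 15.6, so that a separation from RPE in C57BL/6J is not shown without this cell. The clusters are small, however, and the median cell held 12 and 4 UMIs.

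The Kcnj13 gene lies on the minus strand of chromosome 1 (GRCm38, chr1:87386363-87394729) and overlaps Gigyf2 on the opposite strand. Because it led both pigmented cell types, its promoter was searched for CATGTG and CACGTG, forms of the E-box that basic helix-loop-helix leucine zipper factors such as MITF, the regulator of pigment cell genes, are known to bind. The RefSeq promoter sequence (GRCm38.p6, chr1:87394680-87394979, minus strand, from 250 bases before to 50 after the start) is shown with the only match of CATGTG, on the reverse strand and starting 112 bases before the start site, in capitals.
Kcnj13 promoter: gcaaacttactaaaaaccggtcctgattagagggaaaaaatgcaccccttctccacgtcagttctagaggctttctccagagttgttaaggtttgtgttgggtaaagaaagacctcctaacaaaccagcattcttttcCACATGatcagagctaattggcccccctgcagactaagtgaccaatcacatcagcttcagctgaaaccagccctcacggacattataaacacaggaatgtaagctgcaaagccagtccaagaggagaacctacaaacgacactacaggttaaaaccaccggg
Of the 48 members, 34 had RefSeq promoters, 47 in all. On either strand CATGTG was in 2 of them, of Kcnab2 and Kcnj13, and in 14.2% of all 32851 promoters of this length, and CACGTG, which cannot overlap it, was in 6 promoters of Kcnab1, Kcne4, Kcnj2, Kcnk5 and Kcnn4 and in 7.15% of all. The GLI site GACCACCCA was in none of the 47 and in 0.253% of all. The CArG box, by which serum response factor binds smooth muscle genes, was in none of the 47 and in 1.63% of all. These matches describe letters in a window and are not sites shown to be bound.

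Schwann cells had the highest single level of any member. Kcna1 encodes a Kv subunit of the Shaker family that is best known from axons. It was at 40.4 (38.2 to 42.7) and 35.5 (33.3 to 37.9) UMIs per 10,000 in cluster 12 and at 38.4 (34.8 to 42.3) and 38.3 (34.9 to 42) in cluster 13. The order of the clusters changed between libraries and their intervals overlapped in both, so that they did not differ beyond counting error. Nearly every Schwann cell had a UMI, 108 of 108 and 106 of 108 in cluster 12 and 30 of 30 and 46 of 46 in cluster 13, while none of the 407 and 374 RPE cells did, which allows up to 0.737% and 0.802% of cells with a UMI. Outside Schwann cells the highest value was 0.264 in hematopoietic cells of the C57BL/6J library, where 15 of 16 UMIs were in a single cell.

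Both Schwann clusters held Kcna1 and Kcna2, while the intervals of Kcna6 and Kcnk1 lay apart in both libraries. Kcna2, a Shaker relative of Kcna1, was at 3.07 (2.48 to 3.76) and 2.35 (1.81 to 3) in cluster 12. In cluster 13 it was at 1.77 (1.06 to 2.76) and 1.17 (0.639 to 1.96), with overlapping intervals. Its level in cluster 12 was 1.74 and 2.01 times that in cluster 13. In cluster 12 all 54 cells with Kcna2 in the B6129PF1/J library and 45 of 46 in the C57BL/6J library also had Kcna1, as did nearly all cells of the cluster. Kcna6, another Shaker gene that neighbours Kcna1 and Kcna5 on chromosome 6, was at 1.96 (1.5 to 2.52) and 1.47 (1.05 to 2) in cluster 12 but had 0 and 1 UMI in cluster 13. The upper bounds in cluster 13, 0.343 and 0.465, lay below the intervals of cluster 12. Kcnh8, a Kv subunit of the ether-a-go-go-like group, followed with 20 and 13 UMIs in cluster 12 (0.654 and 0.477 per 10,000) and 1 and 0 in cluster 13, where its intervals overlapped those of cluster 12.

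Kcnk1 had the opposite pattern. This K2P leak channel gene was at 5.21 (3.94 to 6.77) and 3.42 (2.46 to 4.64) UMIs per 10,000 in cluster 13, in 23 of 30 and 23 of 46 cells. No UMI was counted in the 108 cells of cluster 12 in either library, which allows a share of up to 2.78% of cells with a UMI. Measured against a floor of 3 UMIs in each library of cluster 12, cluster 13 was at least 53.1-fold and 31.1-fold higher. Cluster 13 was also the cluster with the higher sum of Schwann markers given above. Kcnj10, the glial Kir gene of potassium buffering, was counted by 18 and 6 UMIs in cluster 12 (0.588 and 0.220) and by 1 and 0 in cluster 13, again with overlapping intervals. Melanocytes held 4 and 3 UMIs of Kcnj10 (0.450 and 0.289) and were its highest cluster in C57BL/6J.

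**Figure D3:**
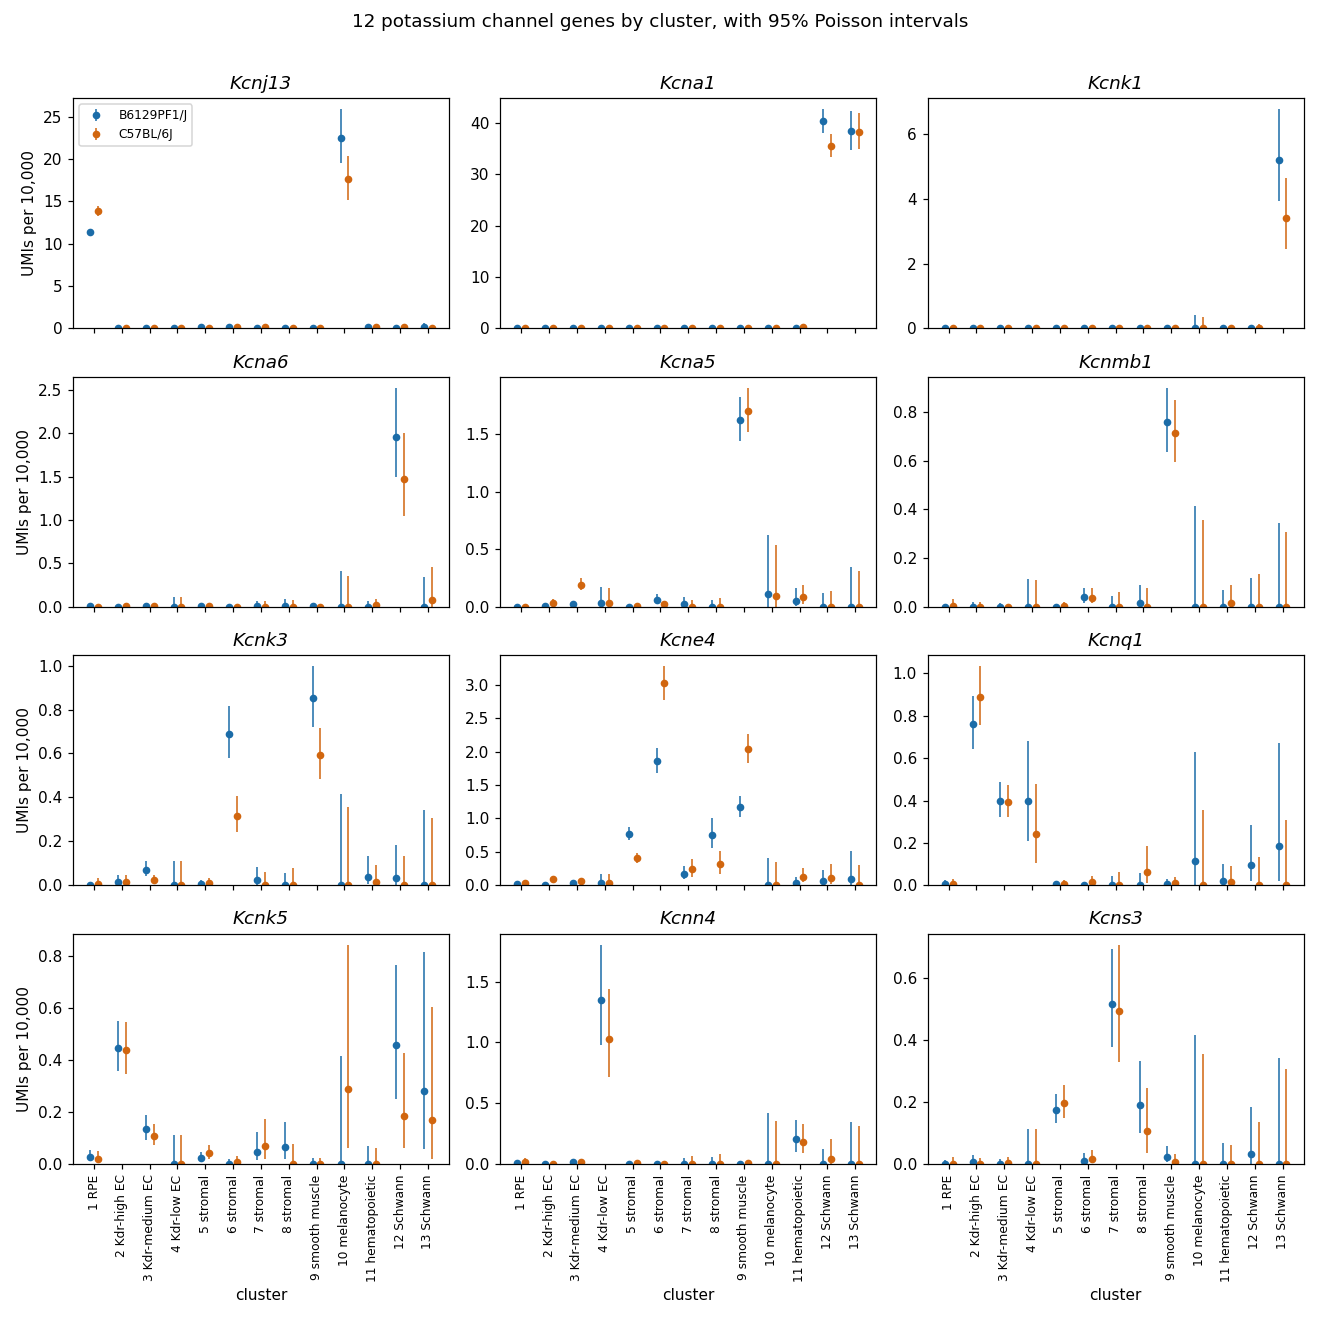
Levels of 12 members (vertical axes, UMIs per 10,000, 95% Poisson intervals as bars) by cluster (horizontal axes), with both libraries as separate points. Kcnk1 rises above 3 in Schwann cluster 13 alone, Kcna6 above 1 in cluster 12 alone, and Kcnn4 above 1 in Kdr-low ECs alone.

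Smooth muscle cells, the highest type of 10 members as given above, held members of several classes. Kcna5, the Shaker Kv subunit of vascular muscle, was at 1.62 (1.44 to 1.82) and 1.70 (1.52 to 1.9) UMIs per 10,000, in 46.1% and 41.5% of cells. Kcnab1, a cytoplasmic beta subunit of Shaker channels, was at 0.963 (0.824 to 1.12) and 1.08 (0.93 to 1.24). Kcnmb1, the beta subunit that raises the calcium sensitivity of large-conductance (BK) channels in smooth muscle, was at 0.761 (0.638 to 0.9) and 0.714 (0.596 to 0.849). All of these had closely matching levels in the libraries, and each held over 50% of its summed cluster level in this cluster.

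Kcnma1, the pore of the BK channel, had lower 3′ UMI counts than its beta subunit, at 0.237 (0.171 to 0.32) and 0.251 (0.183 to 0.336) UMIs per 10,000. Kcnc1 and Kcnb2, further Kv subunits, were rarer, with 14 and 16 UMIs and with 11 and 5 UMIs in the cluster. Kcnj12, a strong inward rectifier, was at 0.276 and 0.195. In ECs of clusters 2 and 3, by contrast, no UMI of Kcnmb1 was counted in either library, so that its level in smooth muscle cells was at least 43.5-fold that of Kdr-high ECs and at least 61.2-fold that of Kdr-medium ECs at a floor of 3 UMIs per library. Kcnmb1 overlaps Kcnip1 on the other strand, which strand-aware 3′ counting separates.

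Other genes of smooth muscle were shared with stromal cluster 6. Kcnk3, an acid-sensitive K2P channel gene, was at 0.851 (0.72 to 0.998) and 0.591 (0.484 to 0.715) UMIs per 10,000 in smooth muscle cells and at 0.690 (0.581 to 0.814) and 0.316 (0.241 to 0.406) in cluster 6. Kcne4, an auxiliary subunit that inhibits several Kv channels, was higher in cluster 6, at 1.86 (1.67 to 2.05) and 3.02 (2.78 to 3.28), than in smooth muscle cells, at 1.17 (1.02 to 1.34) and 2.04 (1.83 to 2.26). Kcnip3, a calcium-binding protein of the Kv4 interacting group, was spread evenly over both, at 0.279 and 0.242 in cluster 6 and 0.242 and 0.268 in smooth muscle cells. Kcnt2, a sodium-activated channel gene, was at 0.308 and 0.274 in cluster 6 and 0.0958 and 0.167 in smooth muscle cells. Abcc9, the sulfonylurea receptor of vascular KATP channels and no member itself, was also highest in cluster 6, at 1.36 and 1.22.

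In stromal clusters 5 and 8 Kcne4 was the channel gene with the highest level, at 0.768 and 0.408 in cluster 5 and 0.759 and 0.314 in cluster 8. Kcns3, a Kv subunit that is silent alone and modifies others, was highest in cluster 7, at 0.518 (0.376 to 0.696) and 0.494 (0.331 to 0.709), which was 2.99 and 2.53 times its level in cluster 5. Kcne1l, an auxiliary subunit, was highest in cluster 5, at 0.208 (0.161 to 0.264) and 0.173 (0.128 to 0.23). Kcnk2, a mechanosensitive K2P channel gene, was highest in cluster 8 but with 18 and 6 UMIs only, and its intervals there overlapped those of cluster 7.

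ECs differed among themselves in which channel they carried. Kcnq1, a Kv subunit known from heart and epithelia, was at 0.761 (0.642 to 0.896) and 0.887 (0.756 to 1.03) UMIs per 10,000 in Kdr-high ECs, and this was 1.91 and 2.26 times the level in Kdr-medium ECs. Kcnk5, an alkaline-activated K2P gene, was steeper, at 0.446 (0.356 to 0.552) and 0.438 (0.347 to 0.545) in Kdr-high ECs, or 3.36 and 4.07 times Kdr-medium ECs. Kcnj15, a Kir subunit, was low but had the same order, with 19 and 18 UMIs against 7 and 7.

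Kcnn4 marked the smallest endothelial cluster. It encodes the intermediate-conductance calcium-activated channel of endothelium and blood cells. In Kdr-low ECs it was at 1.34 (0.977 to 1.8) and 1.03 (0.712 to 1.44) UMIs per 10,000, in 30 of 63 and 18 of 72 cells. No UMI was counted in 370 and 403 Kdr-high ECs, which allows up to 0.811% and 0.744% of cells with a UMI and made Kdr-low ECs at least 85.4-fold and 62.5-fold higher at the floor of 3 UMIs. Kdr-medium ECs had 3 and 4 UMIs. With every cell thinned to 1700 UMIs, 22.2% and 11.1% of Kdr-low ECs had a Kcnn4 UMI, against 47.6% and 25% before.

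Hematopoietic cells were the other site of Kcnn4, at 0.201 (0.1 to 0.36) and 0.181 (0.0906 to 0.325). Kcnab2, another Shaker beta subunit, was highest in these cells, with 10 and 7 UMIs. Kcnk13, a K2P gene known from tissue macrophages, had 2 and 15 UMIs there, at 0.0365 (0.00443 to 0.132) and 0.247 (0.138 to 0.408), so that its level in the C57BL/6J library was higher by more than the counting intervals. It was not limited to these cells, at 0.294 and 0.183 in Schwann cluster 12 and 0.0767 and 0.0515 in RPE.

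Kcnq1ot1 is no channel. This long noncoding RNA is transcribed antisense to Kcnq1 from within that gene (chr7:143203458-143296549, minus strand), and it had 4180 UMIs, more than any member except Kcnj13. Its level was broad, between 0.206 in RPE and 2.25 in Kdr-high ECs, both in the C57BL/6J library. It was the member with the highest level in Kdr-high, Kdr-medium and Kdr-low ECs and in stromal clusters 5, 7 and 8 and hematopoietic cells. Kcnq1 itself showed the Kdr-high order above in counts that keep the strands apart.

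A list of 33 genes of potassium transport and channel partners gives the setting of these channels. Of 24 genes with 10 or more UMIs, 14 had the same highest cluster in both libraries. Atp1b1, a beta subunit gene of the sodium pump that supplies the potassium gradient, was highest in RPE at 8.95 and 9.18 UMIs per 10,000.

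Most members had like levels in the libraries. Of 36 members with 10 or more UMIs in their highest cluster, 1 was at least 2 times higher in C57BL/6J, against 5.36% of all genes, and 5 were at least 2 times lower, against 5.32%. The higher gene was Kcnj2, a strong inward rectifier, at 0.0262 and 0.0657 UMIs per 10,000 in Kdr-high ECs. The lower ones were Kcnb2, Kcnh2, Kcnj10, Kcnk2 and Kcnmb2, the last an auxiliary BK subunit at 0.0997 and 0.0164 in Kdr-high ECs. All 6 rested on fewer than 50 UMIs, and none of the 21 members with more UMIs in their highest cluster passed 2 times.

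**Figure D4:**
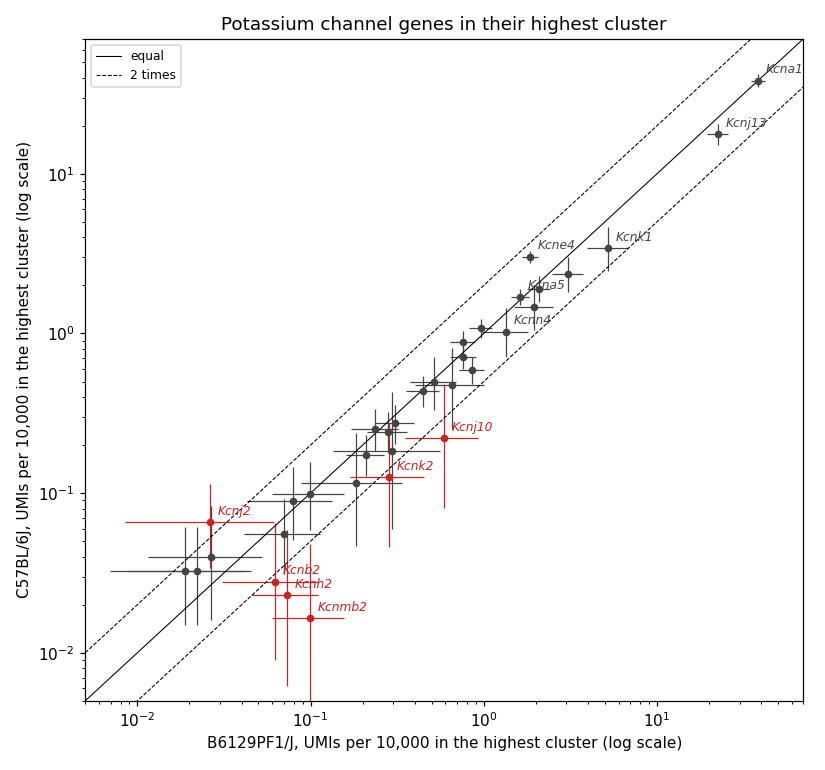
Level of members in their highest cluster, in UMIs per 10,000 on log scales, in the B6129PF1/J library (horizontal axis) and the C57BL/6J library (vertical axis). Well-counted members lie near the line of equal levels, and those beyond 2 times are low, such as Kcnmb2 at 0.0997 and 0.0164.

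Within clusters the differences between libraries had a more varied sign. Over 128 pairs of a member and a cluster with 10 or more UMIs, the intervals of the libraries did not overlap in 16, in 8 genes, while this held for 6% of such pairs over all genes. Kcne4 supplied 5 of them. Its level in C57BL/6J was 1.63 times that in B6129PF1/J in cluster 6 and 1.74 times in smooth muscle cells, but 0.531 times in stromal cluster 5 (0.768 against 0.408) and 0.414 times in cluster 8 (0.759 against 0.314). Kcnk3 was lower in C57BL/6J in both of its main clusters, at 0.457 times in cluster 6 and 0.695 times in smooth muscle cells. Kcna5 had 6 UMIs in 3 Kdr-medium ECs of B6129PF1/J and 52 UMIs in 27 such cells of C57BL/6J. In C57BL/6J 45 of those 52 UMIs were in 22 cells without any UMI of the smooth muscle markers. The 27 cells together held 98 UMIs of these markers, at 5.99 per 10,000 against 1.05 in the whole cluster. In B6129PF1/J 1 of the 3 cells was without such UMIs and held 1 of the 6 Kcna5 UMIs. The part of smooth muscle transcripts in these counts was not tested.

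The bulk comparison of Ihh+/+ with Ihh iDEC/iDEC RPE/choroid addressed whether loss of endothelial Ihh altered these genes in the whole tissue. The table gives the authors' average FPKM (fragments scaled to transcript length and to the mapped fragments of the library) of 3 libraries a group and no value per library, so that the differences are given without an error and were not tested here. All 48 members were listed and 19 reached 1 FPKM in the higher group. None of the 19 differed by 2 times or more, while 1.1% of all genes past that minimum were at least 2 times higher in Ihh iDEC/iDEC and 0.745% at least 2 times lower. The median ratio of Ihh iDEC/iDEC to Ihh+/+ was 1.01 over the 19 members and 0.975 over all genes, with 10 members above 1 and 9 below. The targeted gene Ihh itself was at 1.53 FPKM in Ihh+/+ and 0.454 in Ihh iDEC/iDEC, and its target Gli1 at 9.40 and 3.15.

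Kcnj13 was the most abundant member per length of transcript, at 159 FPKM in Ihh+/+ and 174 in Ihh iDEC/iDEC. Kcna2 was at 5.19 and 4.80, Kcnk5 at 4.17 and 3.98, and Kcne4 at 2.72 and 2.74. Kcnh2 was at 2.4 and 2.59 and Kcnk13 at 1.73 and 2.12. The lowest ratios were those of Kcnmb4, an auxiliary BK subunit, at 2.04 and 1.31 (0.642), and Kcnq1, at 1.74 and 1.14 (0.655).

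Markers of several cell types differed between the same groups. All 4 RPE markers were higher in Ihh iDEC/iDEC, by 1.02 to 1.34 times and 1.24 times in sum, beside the ratio of 1.09 for Kcnj13. All 5 EC markers were lower, at 0.856 times in sum, beside Kcnq1 and Kcnk5. The summed stromal markers were at 0.662 times, those of melanocytes at 0.642 times, and those of rods and cones, from the neural retina, at 0.353 times with all 8 lower (89.6 and 31.6 FPKM). All 6 skeletal muscle markers were higher, at 1.35 times in sum (341 and 459 FPKM). Muller glia markers were at 1.17 times in sum, with 1 of 3 lower, and the erythrocyte marker at 1.55 times. The part of these in the members' ratios was not tested, and in bulk tissue fewer cells of a type and less RNA per cell cannot be told apart. Among members under 1 FPKM, Kcnk1 was at 0.121 and 0.792 and Kcnk2 at 0.478 and 0.216.

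In cultured GLI1+ cells a single auxiliary subunit stood out under SAG. Kcne4 was at 22.8 FPKM with DMSO and 65.5 with SAG, a ratio of 2.87 or a log2 difference of 1.52. The treatment was visible in the hedgehog targets, as Gli1 was at 0.0280 and 3.65 FPKM and Ptch1, the hedgehog receptor, at 1.13 and 10.1. Of the 9 members that reached 1 FPKM, Kcne4 was the 1 past 2 times, and it was higher, against 0.387% of all genes higher and 1.18% lower by that measure. Again these are group averages of 3 libraries from a single stock, given without an error and not tested here.

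The other members of the GLI1+ cells were lower in level and nearer to no difference. Kcnj15 was at 6.27 and 3.63 FPKM (0.579), Kcnma1 at 1.85 and 1.16 (0.629), Kcnd1, a Kv4 subunit, at 2.06 and 1.69, and Kcnip3 at 1.63 and 1.41. Kcnj2 was at 1.10 and 1.41 and Kcnn1, a small-conductance calcium-activated channel gene, at 1.13 and 1.19. Below 1 FPKM on average were Kcnab1 at 0.959 and 1.02, Kcnt2 at 1.05 and 0.904 and Kcnk2 at 0.723 and 0.792. The median ratio over the 9 members was 0.866 and over all genes 1.04, and 6 members were listed at 0 in both groups. Stromal markers were present at 2472 and 2246 FPKM in sum and those of smooth muscle at 619 and 640, whereas EC markers summed to 0.438 and 0.467. The 4 stromal markers were each lower with SAG, and the part of this in the ratios was not tested.

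**Figure D5:**
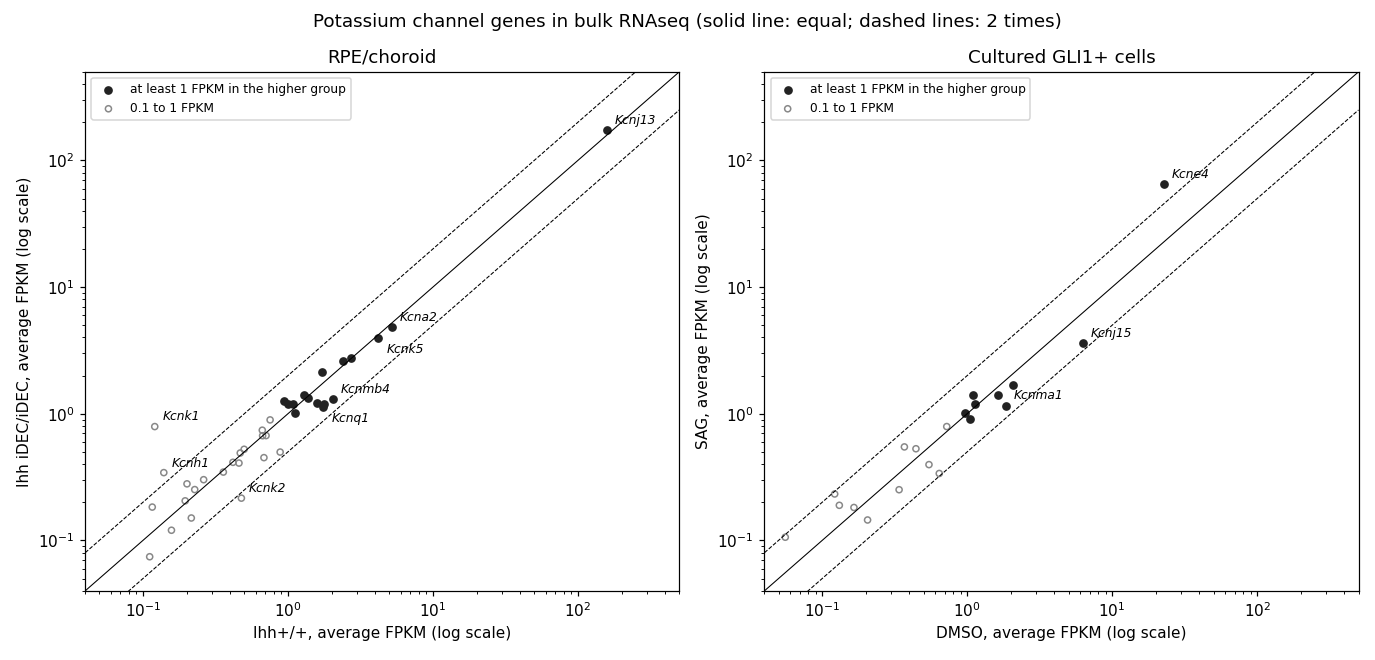
Authors' average FPKM of members on log scales in Ihh+/+ against Ihh iDEC/iDEC RPE/choroid (left) and in DMSO against SAG GLI1+ cells (right), with a solid line at equal values and dashed lines at 2 times. Kcnj13 lies near the solid line at 159 and 174 FPKM, and Kcne4 lies beyond the dashed line at 22.8 and 65.5 FPKM.

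The partner genes did not pass 2 times in either bulk comparison. Of the 33, 20 reached 1 FPKM in RPE/choroid with a median ratio of 0.968, and 15 did in GLI1+ cells with a median ratio of 1.02. Kcne4 thus had different values in the experiments. It was at 2.72 and 2.74 FPKM in Ihh+/+ and Ihh iDEC/iDEC tissue and at 22.8 and 65.5 in cultured cells without and with SAG. The tables were normalized separately, so that levels are set side by side and not compared.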

How the data were processed

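The authors deposited raw UMI counts per gene and cell for both scRNAseq libraries, made with Cell Ranger on mm10 and filtered for cells of low UMIs or genes and high mitochondrial share and for genes in fewer than 3 cells, with Seurat 2.1 clusters. Fewer cells were in the tables than the study counted. The authors' deposited averages per cluster, means over cells of the natural log of 1 plus UMIs per 10,000, served as an alternative. Bulk reads were aligned with STAR 2.4.0f1 and the authors deposited average FPKM per group (Cufflinks 2.0.2). Strandedness of the bulk libraries is not given in the sources used here. Their log2 fold changes and adjusted p-values were not used.

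UMIs were summed per cluster and library with Python 3.11.15, numpy 2.4.6, scipy 1.17.1 and pandas 2.3.3. Named genes had 100 or more UMIs, or were among the 3 highest members of a cluster with 10 UMIs there, or the 10 highest in a bulk table, or past 2 times; others named to complete a family or cell type were chosen after their values were seen. A few members and markers that enter the counts and sums are not reported here by name. The members and lists were chosen with earlier results of these data known. Doublets were not removed beyond the authors' filters. Poisson intervals (95%) and floors of 3 UMIs cover counting error only. The scripts were checked on made-up counts.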

Additional observations from a re-analysis of the deposited data

Results flagged for a closer look

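A few members with 100 or more UMIs had a different highest cluster in each library. With 1 library per strain these differences were not tested. For Kcna1 the levels in Schwann clusters 12 and 13 were 40.4 and 38.4 UMIs per 10,000 in B6129PF1/J and 35.5 and 38.3 in C57BL/6J. Kcnip3 was at 0.279 in cluster 6 and 0.242 in smooth muscle cells, then at 0.242 and 0.268. Kcnj12 was at 0.327 in cluster 12 and 0.0931 in cluster 13, then at 0.0734 and 0.417, on at most 10 UMIs each. Kcnk5 was at 0.458 in cluster 12 and 0.446 in Kdr-high ECs, then at 0.183 and 0.438. Kcnq1ot1 was at 2.07 in cluster 7 and 1.60 in Kdr-high ECs, then at 1.91 and 2.25.

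In Kcna1, Kcne4 and Kcnq1ot1 the libraries differed in opposite directions by cluster, by more than the counting intervals and without a test. The ratio of C57BL/6J to B6129PF1/J for Kcne4 was 1.63 in cluster 6, 1.74 in smooth muscle cells and 8.35 in Kdr-high ECs (2 and 16 UMIs), but 0.531 in cluster 5 and 0.414 in cluster 8. For Kcna1 it was 0.880 in cluster 12 and 7.22 in hematopoietic cells (2 and 16 UMIs, of which 15 were in a single cell). For Kcnq1ot1 it was 1.40 in Kdr-high ECs and 0.479 in RPE.

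A table of 99 genes that the authors selected as higher in choroidal ECs than in the sorted ECs of other tissues held 1 member. Its choroid column comes from libraries outside this series, so that their preparation was not examined. Kcnj13 was at 4.33 FPKM in choroidal ECs, against 0.158 in neural retina, 0.257 in lung, 0 in liver and 0.005 in heart ECs, 16.9 times the highest of these. The table also lists Rpe65 and Rgr of the RPE markers and Pmel and Tyr of the melanocyte markers, while Kcnj13 in the single-cell ECs was at 0.0414 to 0.0907 UMIs per 10,000. The part of those transcripts in this value was not tested.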

How the results depend on the processing

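Of 42 values recomputed under an alternative, 32 stayed within 1.5 times of the count reported or within the interval of the level, and no call changed its direction. The highest summed level in B6129PF1/J moved from Schwann cluster 12 to cluster 13 under each alternative. The 27 members with the same highest cluster ranged from 18 (of 28 with 50 or more UMIs, 64.3%, against 47.9% of all genes) to 34 with 7 cell types in place of clusters, an alternative chosen after seeing the data. The 18 members with at least 50% of their level in a cluster became 11 at a minimum of 50 UMIs (39.3%, against 8.02% of all genes) and 28 with 7 cell types. The 6 members that differed 2 times between libraries became 0 at a minimum of 50 UMIs, 15 with no minimum and 12 at 1.5 times. For Ihh, 0 members became 3 at a minimum of 0.1 FPKM (Kcnk2 lower, Kcnh1 and Kcnk1 higher), 6 with no minimum and 2 at 1.5 times (Kcnmb4 and Kcnq1 lower). For SAG, 1 became 12 with no minimum and 3 at 1.5 times (Kcnj15 and Kcnma1 lower). The larger counts without a minimum come from genes of few UMIs or low FPKM. Where no share of all genes stands beside a count, the count shows only how the call moves with the setting. No paired analysis was possible because each strain had 1 library and the bulk tables give group averages, for which leaving out each library in turn was not run either.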

Other observations

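The order of Kcna1 and Kcna2 depended on the measure. Over all cells Kcna1 had 3143 UMIs and Kcna2 had 305, but in Ihh+/+ RPE/choroid Kcna2 was at 5.19 FPKM and Kcna1 at 0.499. Likewise Kcnq1ot1 had 4180 UMIs and was at 0.0317 FPKM in the same tissue. Tissue preparation, age and counting by 3′ tag or by transcript length all differ between these data, and the part of each was not tested.

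Kcnj15 was highest in Kdr-high ECs in the single-cell libraries, with 19 and 18 UMIs, and was the second most abundant member in cultured GLI1+ cells at 6.27 FPKM with DMSO, where EC markers summed to 0.438 FPKM.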
